A study of Arabidopsis thaliana with 12 samples.

Results

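The interaction of genotype and treatment was described here as the difference between the responses of 2 genotypes to the same bacterium. For each gene it was the response in seedlings labelled Atg3bp1 (hrcC minus mock) minus the response in seedlings labelled WT (hrcC minus mock), on the log2(FPKM + 1) scale, where FPKM is sequenced fragments scaled to transcript length and library size. It could be tested in 17158 of the 27371 listed genes, those with a mean of at least 1 FPKM, and it used all 12 of the 12 libraries. The 4 groups held 3 libraries each. They were Atg3bp1 treated for 24 h with Pst DC3000 hrcC- (Atg3bp1 hrcC), Atg3bp1 mock, WT treated in the same way (WT hrcC) and WT mock. Every library was made from whole 14-day-old Arabidopsis thaliana seedlings of the Columbia-0 ecotype. According to the study's methods the mutant line was a single allele with a T-DNA in the fifth exon of AtG3BP1, and the replicates were independent experiments. In whole seedlings, fewer cells of a type and less RNA per cell cannot be told apart.

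Plants detect conserved bacterial molecules with surface receptors and answer with a broad reprogramming of transcription known as pattern-triggered immunity. The hrcC- strain lacks a working type III secretion system and so cannot inject effector proteins that suppress the immune response, although it can still release small molecules such as the jasmonate mimic coronatine. AtG3BP1 belongs to a family of RNA-binding proteins whose animal relatives assemble stress granules. A negative interaction can come from a smaller increase, from a larger decrease, or from a decrease in Atg3bp1 where WT increased, and these cases were kept apart below.

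The targeted gene, AT5G48650 (chr5:19726672-19729764, TAIR10.1), went against the genotype labels. The libraries labelled Atg3bp1 held 18.4, 16.0 and 12.5 FPKM of it after hrcC and 16.6, 13.5 and 11.4 FPKM in mock. Those labelled WT held 0.426, 0.354 and 0.311 FPKM after hrcC and 0.354, 0.0179 and 0.221 FPKM in mock. The log2 difference between the genotypes was 3.68 in mock and 3.69 after hrcC, so that the interaction of the gene itself was 0.015 (SE 0.24). All directions below rest on the labels as deposited.

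Among the libraries, FPKM sums ran from 428556 to 494126. Upper-quartile scaling factors ran from 0.866 to 1.199, and 3 libraries stood above the others: WT hrcC 1 (1.199), WT mock 2 (1.11) and WT mock 3 (1.15). The single locus AT2G01021 took 20.3% of the summed FPKM in Atg3bp1 hrcC 2 and 31.6% in Atg3bp1 hrcC 3, against 4.03% to 12.6% in the other 10 libraries. WT mock 1 stood apart in the genes of carbon starvation described below. Shoot and root transcripts were present throughout. The 48 nuclear photosystem, antenna and Rubisco genes summed to between 64925 and 94198 FPKM in Atg3bp1 hrcC, 71846 and 98465 in Atg3bp1 mock, 77010 and 95549 in WT hrcC and 92987 and 121204 in WT mock. The 8 Casparian strip genes of the root endodermis summed to between 19.2 and 35.0 FPKM, 35.3 and 65.4 FPKM, 19.6 and 31.1 FPKM and 21.7 and 46.4 FPKM in the same order of groups. Seed storage transcripts summed to at most 4.07 FPKM, with 3 of 9 genes listed at 0 in every library.

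No gene passed the threshold for the interaction. With limma, 0 genes (0%) reached an adjusted p of 0.05 and a 2-fold difference in either direction, and the smallest Benjamini-Hochberg adjusted p over all 17158 genes was 0.991. An ordinary linear model with no moderation of the variance also called 0 genes (smallest adjusted p 0.837). At an unadjusted p of at most 0.05, limma had 755 genes (4.40%), of which 508 (2.96%) had a lower and 247 (1.44%) a higher response in Atg3bp1. These counts were 1143 lower and 623 higher without WT hrcC 1, and 315 and 135 without Atg3bp1 mock 2. With a term for the 3 libraries with high factors they were 825 and 800, close to equal but both above those of the main fit. The smallest adjusted limma p was then 0.082, again with 0 genes called. The median interaction was -0.00098 and its quartiles were -0.24 and 0.22. The precision was limited: the median 95% interval reached 0.689 to either side, and 9392 genes (54.7%) had an interval wholly within a 2-fold difference. The intervals are not adjusted for the number of genes.

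Library values separated the responses in few genes. In 220 genes (1.28%) all 9 differences between an hrcC and a mock library of Atg3bp1 lay below all 9 of WT, and in 116 genes (0.676%) they lay above. The lower calls were the more frequent ones under each scaling tried, but their share of the genes at an unadjusted p of at most 0.05 was 67.3% with upper-quartile scaling, 74.4% with no rescaling, 59.8% after quantile normalization and 56.5% with median-ratio scaling. An alternative chosen after the data had been seen left out the 3 libraries with high factors. It called 247 genes, 161 lower (0.938%) and 86 higher (0.501%), with WT mock reduced to its replicate 1, which was assumed to vary like the other groups.

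**Figure D1:**
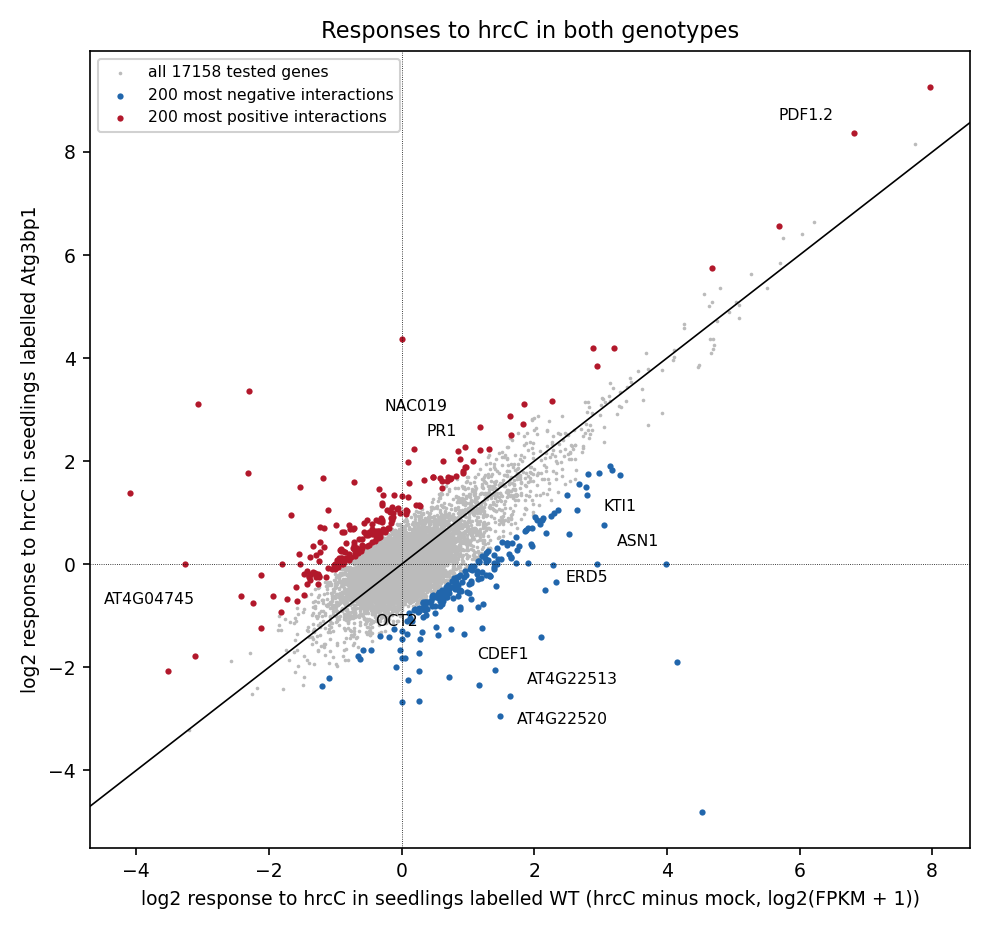
Each point is 1 of the 17158 tested genes, with the log2 response to hrcC in seedlings labelled WT on the x axis and in seedlings labelled Atg3bp1 on the y axis (hrcC minus mock on the log2(FPKM + 1) scale, means of 3 libraries a group). The line marks equal responses, the 200 most negative interactions lie below it in blue and the 200 most positive above it in red. The genes that rose on average had interaction quartiles of -0.33 and 0.31, and the strongly induced PDF1.2 lies farther from the line, at 1.55.

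To separate smaller increases from larger decreases without using the interaction, genes were first picked by the response averaged over both genotypes, a contrast that is orthogonal to the interaction. With limma, 563 genes (3.28%) rose and 121 (0.705%) fell on average, at a Benjamini-Hochberg adjusted p of 0.05 and 2-fold. Among the genes that rose, 290 (51.5%) had a smaller and 273 a larger increase in Atg3bp1. Their median log2 response was 1.58 in Atg3bp1 and 1.63 in WT, and their median interaction was -0.02, with quartiles of -0.33 and 0.31. The 2 kinds were thus nearly equal in number, and which was the more frequent turned with the scaling, from 56.9% smaller increases with no rescaling to 47.3% after quantile normalization. Without WT hrcC 1 the share was 65.1%.

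Among the genes that fell, 76 (62.8%) had a larger and 45 a smaller decrease in Atg3bp1. Their median log2 response was -1.38 in Atg3bp1 and -1.23 in WT, and their median interaction was -0.15, with quartiles of -0.58 and 0.20. This share depended on single libraries. It was 74.0% without Atg3bp1 hrcC 2, 48.0% without WT hrcC 2, 48.4% with a replicate block within each treatment, 38.7% when the 3 libraries with high factors were given a term of their own and 20.1% without them. At an unadjusted p of at most 0.05, 21 genes that rose had a lower and 12 a higher interaction (5.86% together). Among those that fell, 5 had a lower and 4 a higher one (7.44% together), beside 4.40% of all tested genes. The interval lay within a 2-fold difference for 161 (28.6%) of the genes that rose and 9 (7.44%) of those that fell. Over all tested genes this share was 54.7%.

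**Figure D2:**
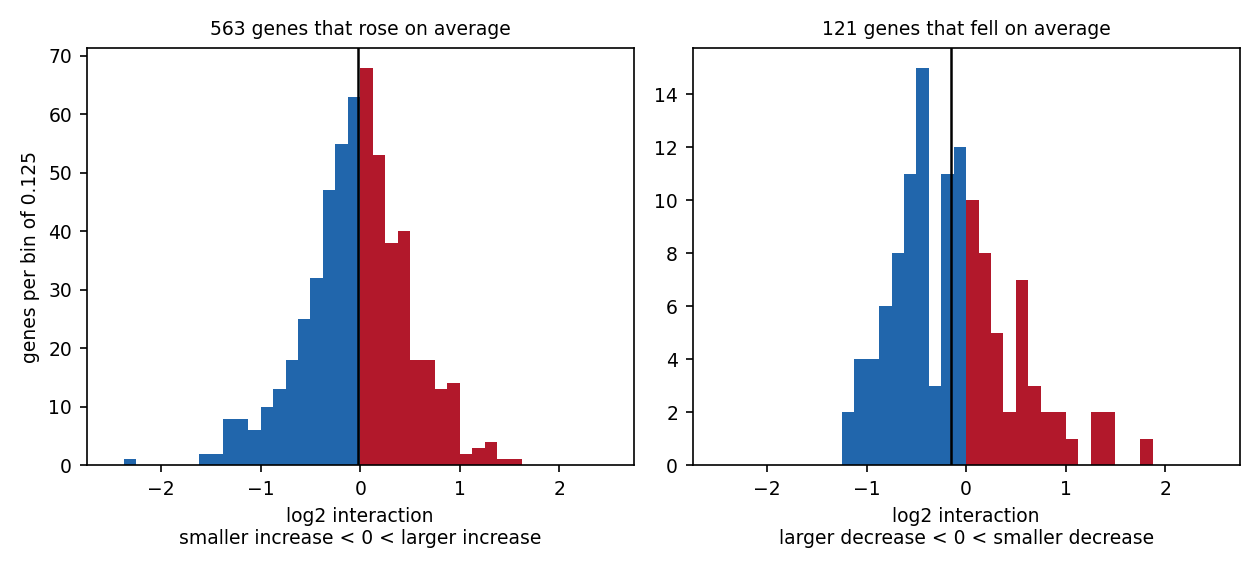
The number of genes per bin (y axis) is plotted against the log2 interaction (x axis) for the 563 genes that rose and the 121 genes that fell on average over both genotypes, with the median as a black line. Smaller increases and larger decreases in Atg3bp1 are blue, larger increases and smaller decreases are red, and the median is -0.02 for the genes that rose and -0.15 for those that fell.

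Of the genes that rose, ASN1, KTI1, the CAP family gene AT4G33720 and AT4G15990 had the most negative interactions. KTI1, a Kunitz trypsin inhibitor, held 541, 686 and 579.7 FPKM in Atg3bp1 hrcC and 292, 234 and 204 in Atg3bp1 mock, against 214, 762 and 411 in WT hrcC and 22.6, 103 and 83.2 in WT mock. Its 3 Atg3bp1 mock libraries all lay above the 3 WT mock libraries, while the ranges overlapped after hrcC. Its interaction was -1.45 (SE 0.73) and -0.88 without WT mock 1. AT4G15990 had -1.58 (SE 0.56) and AT4G33720 had -1.59 (SE 1.02).

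The most positive interactions among the genes that rose were those of PDF1.2, NAC019, AT4G21920 and the oxygenase family gene AT2G38240. NAC019, a transcription factor induced by jasmonate and abscisic acid, held 6.80, 3.27 and 9.39 FPKM in Atg3bp1 hrcC and 0.191, 0.256 and 0.0823 in Atg3bp1 mock, against 1.41, 1.02 and 4.10 in WT hrcC and 0.415, 0.336 and 0.0415 in WT mock. The mock libraries of both genotypes overlapped, and after hrcC 1 WT library lay within the Atg3bp1 range. Its interaction was 1.47 (SE 0.54, unadjusted limma p 0.018), with log2 responses of 2.65 in Atg3bp1 and 1.18 in WT.

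Larger decreases were led by AT5G54370 (-1.20), AT1G53610 (-1.17), NIA1 (-1.11) and EXLA2 (-1.08). NIA1, a nitrate reductase, held 6.28, 6.88 and 4.44 FPKM in Atg3bp1 hrcC and 28.2, 22.6 and 17.9 in Atg3bp1 mock, against 8.29, 16.99 and 19.6 in WT hrcC and 20.1, 24.0 and 25.4 in WT mock. In these deposited values the mock ranges overlapped and all 3 Atg3bp1 hrcC libraries lay below the WT hrcC libraries. After rescaling, WT hrcC 1 (factor 1.199) lay within the Atg3bp1 hrcC range. EXLA2, an expansin-like wall protein, held 3.14, 3.34 and 3.97 FPKM in Atg3bp1 hrcC and 13.1, 13.1 and 13.8 in Atg3bp1 mock, against 2.17, 5.32 and 6.28 in WT hrcC and 4.99, 7.01 and 9.69 in WT mock. Here the genotypes overlapped after hrcC and were apart in mock.

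Smaller decreases were led by AT4G04745 (1.80), AT3G12900 (1.48), NAS2 (1.44) and AT1G73120 (1.33). AT4G04745 held 3.35, 6.14 and 3.78 FPKM in Atg3bp1 hrcC and 9.34, 7.96 and 5.07 in Atg3bp1 mock, against 1.77, 6.43 and 4.78 in WT hrcC and 37.8, 21.7 and 20.8 in WT mock. It was the only one of these 16 genes whose Atg3bp1 responses all lay above those of WT. NAS2, which makes the metal chelator nicotianamine, held 0.691, 0.705 and 0.172 FPKM in Atg3bp1 hrcC and 6.30, 7.11 and 3.08 in Atg3bp1 mock, against 0.190, 1.38 and 0.445 in WT hrcC and 40.5, 8.38 and 17.03 in WT mock. Both genes were lower in every Atg3bp1 mock library than in every WT mock library and overlapped after hrcC.

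The ends of the interaction were taken as the 200 most negative and the 200 most positive genes, 1.17% of those tested at each end. Their interactions chose them and are given as a description. The negative end reached up to -1.05 (AT4G18340 and AT1G35180 just inside at -1.05, THA1 just outside at -1.05), and the positive end began at 0.85 (AT5G52780 just inside, AT5G24313 just outside at 0.85). At the negative end 54 genes had a smaller increase, 15 a larger decrease and 131 were lower after hrcC in Atg3bp1 but higher in WT. At the positive end 45 had a larger increase, 34 a smaller decrease and 121 were higher after hrcC in Atg3bp1 but lower in WT. Over all tested genes the same 6 classes held 2219, 3205, 3182, 1829, 3898 and 2825 genes.

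The ends also differed in where the genotypes were apart. In the negative 200 the median log2 difference between Atg3bp1 and WT was 1.41 in mock and 0.03 after hrcC, and in 173 genes the mock difference was the larger in size. In the positive 200 it was -0.64 in mock and 0.53 after hrcC, and the mock difference was the larger in 111 genes. Over all tested genes it was the larger in 11679 of 17158, and since both differences are parts of the interaction that chose the ends, these are descriptions. Many of the positive genes were at the edge of detection. At the positive end 62 genes were listed at 0 in at least 1 library, and the median locus length was 1107 bp. There 63 genes were annotated as uncharacterized proteins or had no annotated product. The negative end had 32 genes listed at 0, 36 uncharacterized in this sense and a median length of 1507 bp. Over all 17158 tested genes 321 (1.87%) were listed at 0 in at least 1 library, 1152 were uncharacterized and the median length was 2364 bp.

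All 8 most positive genes were listed at 0 in at least 2 libraries. They were the loci ATCG00690 (6.19, SE 3.96), ATCG00220, ATCG00065 and ATCG00640, the uncharacterized genes AT5G64395, AT1G74929 and AT1G53541, and AT4G25707. AT4G25707, annotated as a splicing factor 3A subunit, held 12.7, 7.28 and 0 FPKM in Atg3bp1 hrcC and 0, 5.72 and 0 in Atg3bp1 mock, against 0, 0 and 6.05 in WT hrcC and 65.7, 39.6 and 13.7 in WT mock. Its interaction was 5.47 (SE 1.56). As deposited, all WT mock libraries lay above the other 9, but after rescaling WT mock 3 lay below Atg3bp1 hrcC 1. Among the 8 most negative, ATCG00210 (-9.33, SE 5.39) was listed at 0 in 10 libraries and held 21725 FPKM in Atg3bp1 mock 2 and 14634 FPKM in WT hrcC 1. ATCG00080 (-6.04), AT2G24592 (-3.98) and AT3G14452 (-3.51) were listed at 0 in 5, 11 and 7 libraries. The other 4 of the 8 most negative genes were neighbours on chromosome 4 and were detected in all 12 libraries.

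Those 4 belong to a cluster of 6 genes annotated to the superfamily of bifunctional inhibitors, lipid-transfer proteins and seed storage albumins. Typical lipid-transfer proteins are small, secreted and have a cysteine-stabilised pocket that binds lipids. The coding sequences of AT4G22485 (1971 bases) and AT4G22505 (1593 bases) are far longer than those of the other members (348 to 363 bases). Lipid binding by these members was not tested. The cluster spans chr4:11844506-11858970 (TAIR10.1), with AT4G22485, AT4G22490 and AT4G22505 on the minus strand and AT4G22513, AT4G22517 and AT4G22520 on the plus strand. All 6 interactions were negative, at -2.91, -3.46, -2.34, -4.20, -3.51 and -4.43 in that order, with a median of -3.48 beside -0.00098 over all genes. AT4G22513 and AT4G22517 are near copies, with coding sequences of 348 bases that are 95.7% identical and share a run of 68 bases, so reads can be exchanged between them. The first 240 coding bases of both (plus strand, chr4:11854868-11855107 and chr4:11856810-11857049, TAIR10.1, from the RefSeq annotation) are shown to let the 12 differences within them be seen, which stand in capitals.
AT4G22513: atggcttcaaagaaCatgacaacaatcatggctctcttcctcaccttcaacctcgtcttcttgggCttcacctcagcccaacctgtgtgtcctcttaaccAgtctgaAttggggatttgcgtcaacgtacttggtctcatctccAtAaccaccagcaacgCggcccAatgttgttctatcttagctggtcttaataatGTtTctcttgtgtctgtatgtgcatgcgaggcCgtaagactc
AT4G22517: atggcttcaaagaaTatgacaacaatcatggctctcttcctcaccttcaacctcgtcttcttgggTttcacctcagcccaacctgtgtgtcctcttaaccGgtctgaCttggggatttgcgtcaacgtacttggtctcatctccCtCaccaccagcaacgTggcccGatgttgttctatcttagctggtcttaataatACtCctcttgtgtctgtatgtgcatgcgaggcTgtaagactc

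The cluster varied widely within groups. AT4G22513 held 5.32, 93.9 and 108 FPKM in Atg3bp1 hrcC and 287, 367 and 135 in Atg3bp1 mock, against 33.4, 86.3 and 239.9 in WT hrcC and 44.9, 13.0 and 36.8 in WT mock. AT4G22517, its near copy, held 8.18, 90.7 and 110.5 FPKM in Atg3bp1 hrcC and 293, 311 and 143 in Atg3bp1 mock, against 44.0, 85.2 and 251 in WT hrcC and 65.2, 26.1 and 47.9 in WT mock. In both genes Atg3bp1 mock was above Atg3bp1 hrcC and above WT mock in every library, while WT hrcC overlapped WT mock and Atg3bp1 hrcC. AT4G22520, whose sequence is further from these 2, held 0.433, 11.5 and 11.7 FPKM in Atg3bp1 hrcC and 47.8, 76.9 and 27.4 in Atg3bp1 mock, against 6.22, 21.2 and 38.6 in WT hrcC and 16.3, 0.692 and 8.42 in WT mock. Its log2 responses were -2.94 in Atg3bp1 and 1.49 in WT, and its interaction was -4.43 (SE 1.43, unadjusted limma p 0.0091, 95% interval -7.54 to -1.32).

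Summed over the 6 genes, FPKM was 22.4, 261 and 328 in Atg3bp1 hrcC and 836, 997 and 448 in Atg3bp1 mock, against 113, 279.9 and 724 in WT hrcC and 226, 48.6 and 142 in WT mock. The lowest sum of all, in Atg3bp1 hrcC 1, moved the cluster: its median interaction was -2.40 without that library, and it was -4.25 without WT hrcC 1. AT4G22510, an uncharacterized gene on the minus strand, overlaps AT4G22513 and AT4G22517 and did not pass the filter. Whether antisense reads entered their values was not tested.

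The second family at the negative end was that of carbon starvation. In darkness or without sugar, the kinase SnRK1 and bZIP transcription factors turn on genes that break down amino acids, wall polymers and raffinose-family sugars, among them the dark-inducible DIN genes. All 14 listed starvation markers had a negative interaction, with a median of -1.02. Of these, 6 were among the negative 200 (1.17% of all genes were) and 4 had an unadjusted p of at most 0.05 (2.96% of all genes did, in that direction), and 0 passed the adjusted threshold. Their median log2 response was 0.22 in Atg3bp1 and 1.33 in WT, and the median genotype difference was 1.54 in mock and 0.51 after hrcC. In the averaged response 4 of the 14 rose and 0 fell, beside 3.28% and 0.705% of all genes.

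ASN1, which makes asparagine as a nitrogen store in darkness, held 146, 100.2 and 100.1 FPKM in Atg3bp1 hrcC and 73.2, 65.6 and 66.4 in Atg3bp1 mock, against 51.8, 69.6 and 132 in WT hrcC and 2.26, 21.9 and 11.0 in WT mock. WT mock was the only low group, with all 3 libraries below every other library. Its log2 response was 0.76 in Atg3bp1 and 3.05 in WT, giving an interaction of -2.29 (SE 0.75, unadjusted limma p 0.010). ERD5, the proline dehydrogenase that starts proline breakdown, held 255, 152 and 140.5 FPKM in Atg3bp1 hrcC and 177, 203 and 169.7 in Atg3bp1 mock, against 114, 125.1 and 180.1 in WT hrcC and 7.25, 47.1 and 57.1 in WT mock. Again the 3 WT mock libraries lay below the other 9, and all responses of Atg3bp1 lay below those of WT. Its interaction was -2.30, with log2 responses of -0.02 in Atg3bp1 and 2.29 in WT.

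The sequences before the annotated starts of these genes are shown because both have a hexamer known from studies of their control. Those are the G-box CACGTG, bound by bZIP and bHLH factors, and ACTCAT, which stands as its reverse complement here and is described for proline dehydrogenase as a bZIP target under low osmolarity. Each line gives the 250 bases before the start on the minus strand, from RefSeq TAIR10.1 at chr3:17441432-17441681 for ASN1 and chr3:12451557-12451806 for ERD5, with the hexamers in capitals.
ASN1: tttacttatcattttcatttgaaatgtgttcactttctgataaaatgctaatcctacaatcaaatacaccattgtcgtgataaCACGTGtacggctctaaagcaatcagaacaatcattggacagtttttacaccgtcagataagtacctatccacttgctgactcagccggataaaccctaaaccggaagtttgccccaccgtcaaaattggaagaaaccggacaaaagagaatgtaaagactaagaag
ERD5: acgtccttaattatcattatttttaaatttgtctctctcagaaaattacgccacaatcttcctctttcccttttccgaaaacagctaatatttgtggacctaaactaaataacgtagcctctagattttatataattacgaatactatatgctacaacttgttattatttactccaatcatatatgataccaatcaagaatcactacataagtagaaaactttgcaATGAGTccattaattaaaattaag

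Over windows of 300 bases (250 before and 50 after the start) searched on both strands, the G-box was found in 2 of the 14 starvation markers (ASN1 and DIN11) and in 8.90% of 16991 windows of all tested genes. ACTCAT was found in 2 of the 14 (ERD5 and DYL1) and in 14.0% of all windows. The negative 200 held the G-box in 15 of 194 windows (7.73%) and ACTCAT in 31 (16.0%). The positive 200 held them in 21 of 182 (11.5%) and 37 (20.3%), and the lipid-transfer cluster held neither. The hexamers do not overlap each other, and these are counts of letters only.

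Other starvation markers had wider errors. SEN1, a marker of dark-induced senescence, held 364, 259.7 and 290.2 FPKM in Atg3bp1 hrcC and 202.2, 187 and 229 in Atg3bp1 mock, against 183, 102 and 222 in WT hrcC and 2.59, 139 and 44.4 in WT mock (interaction -1.94, unadjusted limma p 0.15). DIN10, a raffinose-family sugar enzyme, held 364, 226 and 210.6 FPKM in Atg3bp1 hrcC and 292, 307 and 333 in Atg3bp1 mock, against 199.5, 160.6 and 197 in WT hrcC and 13.2, 172 and 164 in WT mock (interaction -1.56). In DIN10 the value far below the others was that of WT mock 1, and the deposited values of WT mock 2 and 3 lay among those of WT hrcC. Rescaling, with factors of 1.11 and 1.15 for WT mock 2 and 3, placed them below the WT hrcC libraries. Of the remaining 10 markers, GDH2 (-1.22), TPS9 (-1.13), TPS11 (-1.04), DYL1 (-1.01) and TPS8 (-0.98) lay below AKINBETA1 (-0.84), TPS10 (-0.54), DIN2 (-0.43), bZIP1 (-0.31) and DIN11 (-0.23).

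Summed over the 14 markers, FPKM was 1811, 1271 and 1261 in Atg3bp1 hrcC and 1168, 1214 and 1241 in Atg3bp1 mock, against 1021, 858 and 1224 in WT hrcC and 91.1, 685 and 529 in WT mock. WT mock was below every other library in all 3 replicates, and WT mock 1 was the lowest. Without WT mock 1 the median interaction of the list was -0.47, ASN1 had -1.60, ERD5 -1.51, SEN1 -0.54 and DIN10 -0.48. Without WT mock 2 the list median was -1.38. When the 3 libraries with high factors were left out, so that WT mock 1 stood for its group, 11 of the 14 markers were called lower, beside 0.938% of all genes. That fit rests on the library that stands apart in these genes as its whole WT mock group.

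Breakdown of branched-chain amino acids and lysine, which yields carbon for respiration during starvation, leaned the same way. Of 11 tested genes 9 had a negative interaction (50.2% of all genes did), with a median of -0.35, and 4 were in the negative 200 (1.17% of all genes). MCCA, a subunit of methylcrotonyl-CoA carboxylase in leucine breakdown, held 27.0, 16.5 and 17.4 FPKM in Atg3bp1 hrcC and 18.6, 21.0 and 23.9 in Atg3bp1 mock, against 15.03, 10.4 and 16.2 in WT hrcC and 1.38, 8.90 and 6.64 in WT mock. All 3 WT mock libraries lay below the other 9, and its interaction was -1.44. BCAT-2 (a branched-chain aminotransferase, -1.31), BCE2 (-1.26) and AT1G21400 (-1.21) followed. Without WT mock 1 the list median was -0.07.

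**Figure D3:**
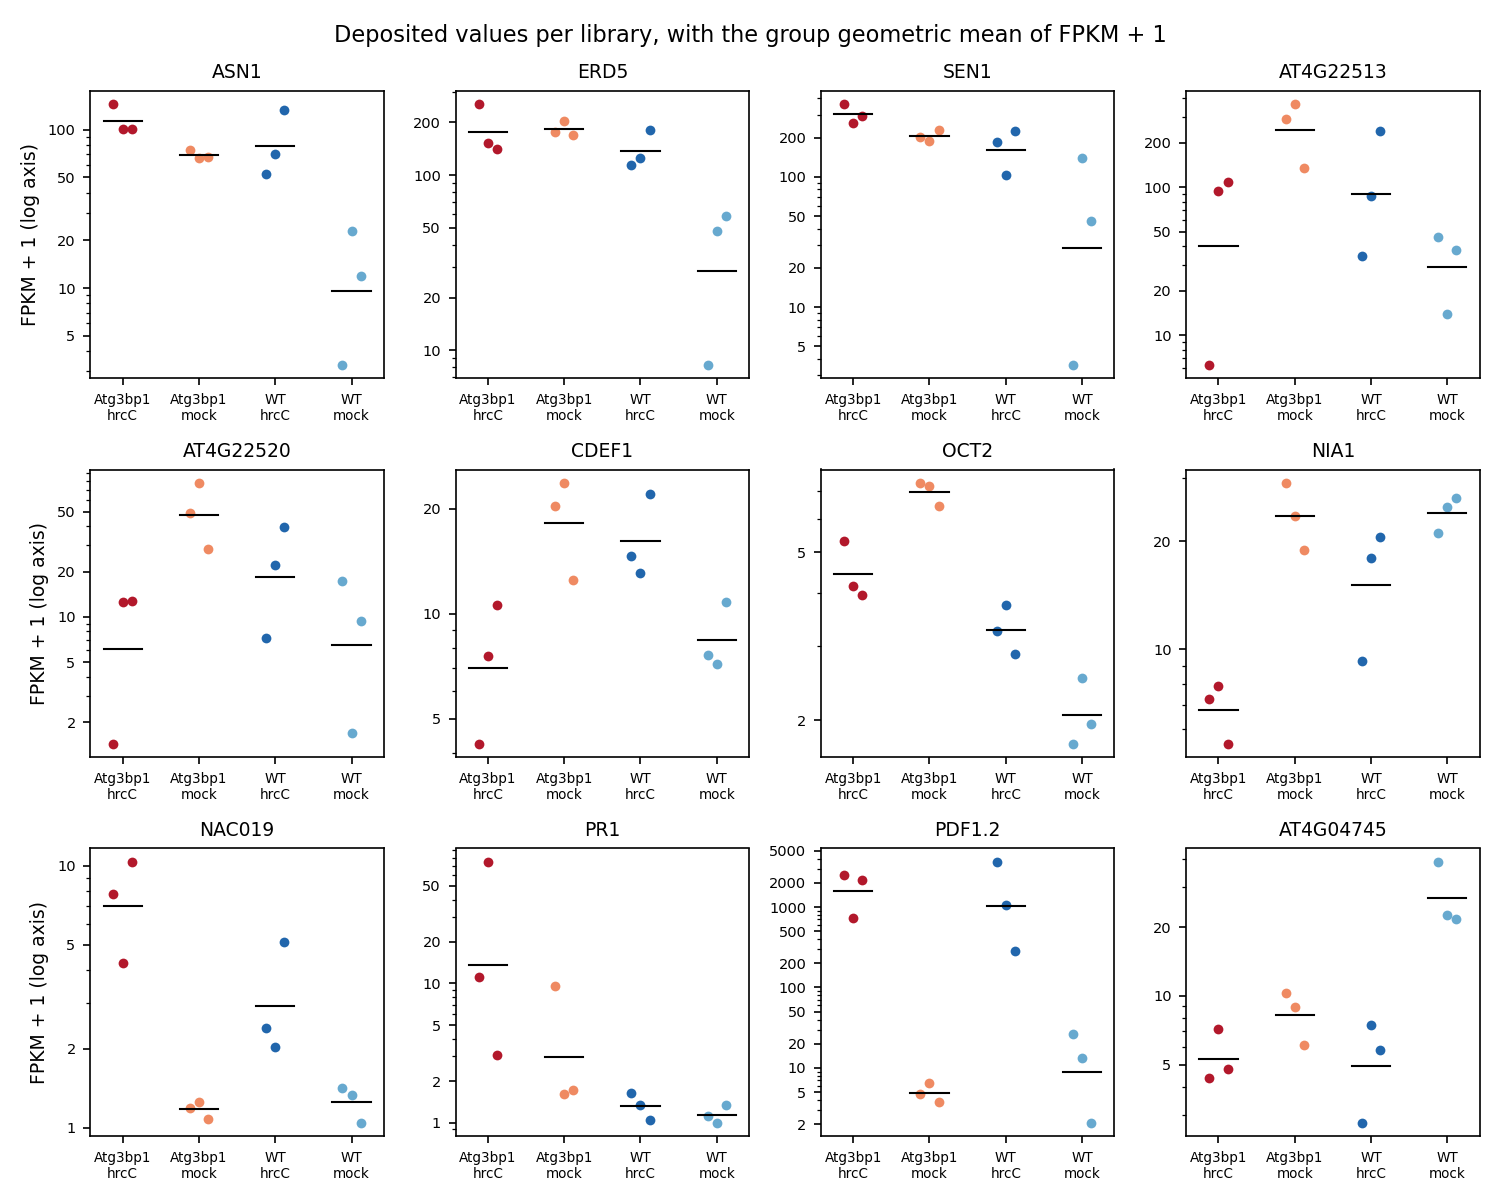
Deposited FPKM + 1 (log axis) of 12 genes in each of the 12 libraries, in the order Atg3bp1 hrcC, Atg3bp1 mock, WT hrcC and WT mock, with the geometric mean of each group as a line. ASN1 and ERD5 are low in the 3 WT mock libraries only, AT4G22513 is high in the 3 Atg3bp1 mock libraries, and PR1 reaches 73.8 FPKM in a single Atg3bp1 hrcC library.

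Several cell wall families had negative medians. Class III peroxidases are secreted enzymes that cross-link or loosen walls and make reactive oxygen. They had a negative interaction in 42 of 48 tested genes, beside 50.2% of all genes, and a median of -0.43. Of these, 4 had an unadjusted p of at most 0.05 in that direction, beside 2.96% of all genes, and 3 were in the negative 200, beside 1.17%. AT2G37130 held 35.97, 40.9 and 22.3 FPKM in Atg3bp1 hrcC and 87.4, 61.2 and 56.9 in Atg3bp1 mock, against 23.9, 35.9 and 27.2 in WT hrcC and 13.8, 29.0 and 29.9 in WT mock. Atg3bp1 mock lay above all other libraries, and the interaction was -1.33 (SE 0.41, unadjusted limma p 0.0065). AT5G64110 (-1.38), AT5G64120 (-1.06) and PER4 (-1.04) were the others with the largest values. The list median stayed between -0.63 and -0.26 when single libraries were left out.

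Alpha-expansins, which loosen walls of growing cells, had a negative interaction in 15 of 17 genes (median -0.38, with -0.67 without WT mock 1 and -0.19 without WT mock 2). EXPA16 had -1.38, EXPA14 -0.85, EXPA17 -0.74 and EXPA11 -0.71. Their median log2 response was -0.64 in Atg3bp1 and -0.34 in WT. In the averaged response 3 of the 17 fell, beside 0.705% of all genes. All 7 tested Casparian strip genes were below 0 (median -0.34, and -0.081 without WT hrcC 2), led by the membrane scaffold CASP2 with 3.50, 4.79 and 4.52 FPKM in Atg3bp1 hrcC and 10.5, 9.75 and 7.79 in Atg3bp1 mock, against 8.16, 5.27 and 4.77 in WT hrcC and 3.76, 6.75 and 9.60 in WT mock (interaction -0.88, unadjusted limma p 0.016). CASP2 was lower in every Atg3bp1 hrcC than Atg3bp1 mock library, and the WT groups overlapped. All 5 GASA peptides, small gibberellin-regulated proteins, were below 0 as well (median -0.36, and -0.065 without WT mock 1). Other root lists had medians of 0.07 over 4 root hair genes and 0.14 over 13 root iron uptake genes. Neither sign held when single libraries were left out. The medians then ran from -0.36 to 0.36 for root hair and from -0.20 to 0.49 for root iron uptake. The Casparian strip sums given above were lower in 3 of 3 Atg3bp1 hrcC libraries than in Atg3bp1 mock, while the sums of the WT groups overlapped, and the part of root content in the peroxidase and expansin lists was not tested.

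Some induced genes were also on the negative side. ER bodies are stores of beta-glucosidases that act on indole glucosinolates when cells break. All 7 ER body genes had a negative interaction (median -0.46), and 6 of them rose in the averaged response, beside 3.28% of all genes. The median log2 response was 1.10 in Atg3bp1 and 1.56 in WT. BGLU18 held 172, 237 and 225 FPKM in Atg3bp1 hrcC and 11.8, 11.6 and 7.85 in Atg3bp1 mock, against 198, 369 and 222 in WT hrcC and 11.3, 5.79 and 9.70 in WT mock. Its genotypes overlapped in both treatments, and its interaction was -0.46 (SE 0.47). NAI2 (-0.68), BGLU22 (-0.55) and NAI1 (-0.47) were similar in size, and 0 of the 7 had an unadjusted p of at most 0.05.

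On the positive side, ZAT zinc fingers, repressors induced by abiotic and oxidative stress, had the highest list median at 0.84, with 4 of 5 genes above 0 and 2 in the positive 200 (1.17% of all genes). STZ held 14.0, 11.6 and 20.7 FPKM in Atg3bp1 hrcC and 3.72, 2.61 and 2.78 in Atg3bp1 mock, against 3.15, 9.75 and 12.1 in WT hrcC and 5.06, 4.38 and 1.86 in WT mock. Every Atg3bp1 hrcC library lay above every Atg3bp1 mock library, whereas the WT groups overlapped, and the interaction was 1.16. ZAT7 had 1.15, RHL41 (ZAT12) 0.84 and ZAT11 0.44. The list median ran from 0.56 to 1.17 when single libraries were left out, and 0 of the 5 genes had an unadjusted p of at most 0.05.

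Of 17 ERF factors, which bind ethylene- and jasmonate-responsive promoters, 12 were above 0 (median 0.38), led by ERF15 (0.89), AT5G51190 (0.79), CRF8 (0.75) and ERF11 (0.71). The ERF median was 0.04 with no filter on low values and 0.03 with a mean of at least 5 FPKM. Abscisic acid, dehydration and cold genes had a median of 0.34, with 8 of 11 above 0 and KIN1 at 1.13, and a median of 0.079 without WT mock 1. Nuclear photosystem, antenna and Rubisco genes were above 0 in 37 of 48 cases, but by little: their median was 0.19, PSAO had 0.74 and PSAH-1 had 0.62. Without WT mock 1 that median was -0.03.

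**Figure D4:**
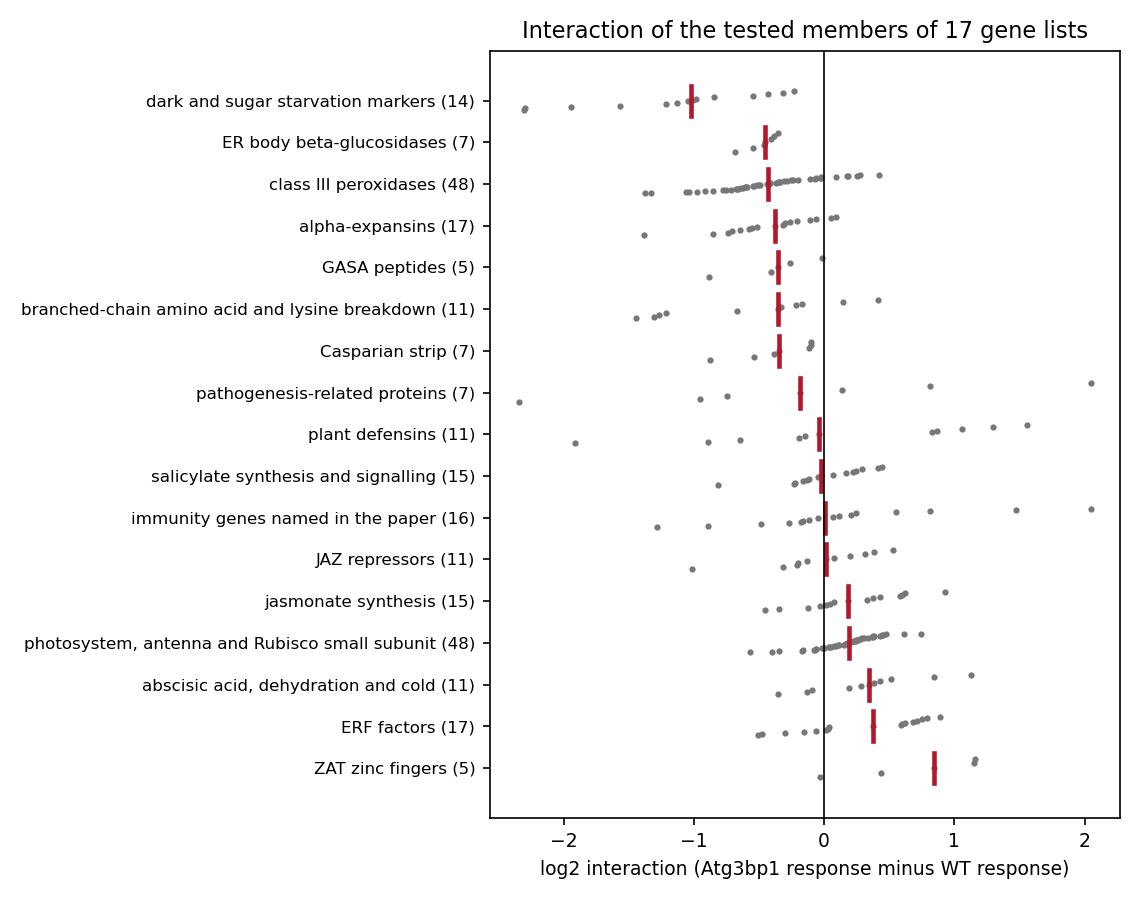
Log2 interaction (x axis) of every tested member of 17 gene lists, with the number tested in parentheses and the list median as a red line, ordered by median. The starvation markers all lie below 0 with a median of -1.02, the immunity lists spread about 0, and 4 of the 5 ZAT zinc fingers lie above 0.

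Jasmonate genes, which include the lists with the highest median responses, had interaction medians between -0.22 and 0.18, with single members at the positive end. Jasmonate is made from plastid fatty acids by LOX, AOS, AOC and OPR enzymes, and its perception removes JAZ repressors from MYC factors. Of 15 synthesis genes 11 rose in the averaged response, beside 3.28% of all genes, and 11 had a positive interaction (median 0.18, and 0.03 without WT mock 1). AOC3, an allene oxide cyclase, held 7.73, 9.39 and 8.76 FPKM in Atg3bp1 hrcC and 2.13, 2.30 and 1.84 in Atg3bp1 mock, against 6.42, 8.88 and 10.3 in WT hrcC and 5.30, 4.87 and 3.71 in WT mock. It was lower in Atg3bp1 mock than in WT mock in every library and overlapped after hrcC, and its interaction was 0.93 (SE 0.33, unadjusted limma p 0.014). OPCL1 (0.62), LOX3 (0.60) and LOX2 (0.58) were next.

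Of 11 JAZ repressors 10 rose on average, beside 3.28% of all genes. Their median interaction was 0.02, with 6 above 0 and JAZ7 the farthest from it at -1.01 (unadjusted limma p 0.025). JAZ7 held 20.0, 16.3 and 17.7 FPKM in Atg3bp1 hrcC and 1.78, 1.03 and 3.81 in Atg3bp1 mock, against 25.5, 18.6 and 22.5 in WT hrcC and 0.516, 1.14 and 0.576 in WT mock. The 7 MYC-branch outputs all rose on average and had a median log2 response of 5.02 in Atg3bp1 and 4.80 in WT. Their median interaction was 0.14, and 1 of them was in the positive 200 (1.17% of all genes). Of 9 jasmonate turnover genes 8 rose on average, and their median interaction was -0.22. The highest of them, AT2G38240 (1.31, SE 1.14), was in the positive 200.

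Plant defensins, small antifungal peptides of the ethylene and jasmonate branch, sat at both ends. Of 11 tested, 4 were in the positive 200 and 1 in the negative 200, beside 1.17% of all genes at each end, and their median was -0.04. PDF1.2 held 2479.8, 727 and 2137 FPKM in Atg3bp1 hrcC and 3.75, 5.42 and 2.83 in Atg3bp1 mock, against 3669, 1051 and 286 in WT hrcC and 25.3, 12.3 and 1.07 in WT mock. The genotypes overlapped in both treatments, and the interaction of 1.55 had an SE of 1.35. PDF1.2c (1.30), PDF1.2b (1.06) and PDF1.3 (0.86) are close relatives of PDF1.2, among which reads can be exchanged. PDF1.5 had -1.91 at under 10 FPKM.

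Pathogenesis-related genes, outputs of salicylate and jasmonate signalling, had a median of -0.18 over 7 genes and the widest spread. PR1, the standard salicylate marker, held 10.2, 73.8 and 2.06 FPKM in Atg3bp1 hrcC and 8.63, 0.607 and 0.711 in Atg3bp1 mock, against 0.628, 0.339 and 0.0565 in WT hrcC and 0.118, 0 and 0.355 in WT mock. Every library labelled Atg3bp1 lay above every library labelled WT, except that Atg3bp1 mock 2 lay just below WT hrcC 1, and the Atg3bp1 groups overlapped each other. Its interaction was 2.05 (SE 1.29) and 0.85 without Atg3bp1 hrcC 2. PRB1, a basic relative of PR1, had -2.35 (SE 1.35) and BGL2, a beta-glucanase, had 0.81.

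Over the 16 tested immunity genes that the study's own text names, 8 had a positive and 8 a negative interaction (median 0.01). This list was chosen on these samples. Apart from PR1 and NAC019, its values were WRKY40 0.55, PAD4 0.25, NAC3 0.21, WAK1 0.12, EDS5 0.07, EDS16 (the salicylate synthesis enzyme ICS1) -0.05, EDS1 -0.12, CBP60G -0.16, MYB51 -0.18, RD26 -0.27, AZI1 -0.48, BGL2 0.81, WRKY29 -0.89 and AT3G59930 -1.28. Only NAC019 among them had an unadjusted p of at most 0.05. Over 15 salicylate synthesis and signalling genes the median was -0.02, and UGT76B1, a salicylate glucosyltransferase, had -0.82 (unadjusted limma p 0.036). It held 22.2, 23.9 and 20.1 FPKM in Atg3bp1 hrcC and 25.6, 22.7 and 13.5 in Atg3bp1 mock, against 21.7, 28.7 and 27.9 in WT hrcC and 8.395, 14.5 and 16.2 in WT mock.

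**Figure D5:**
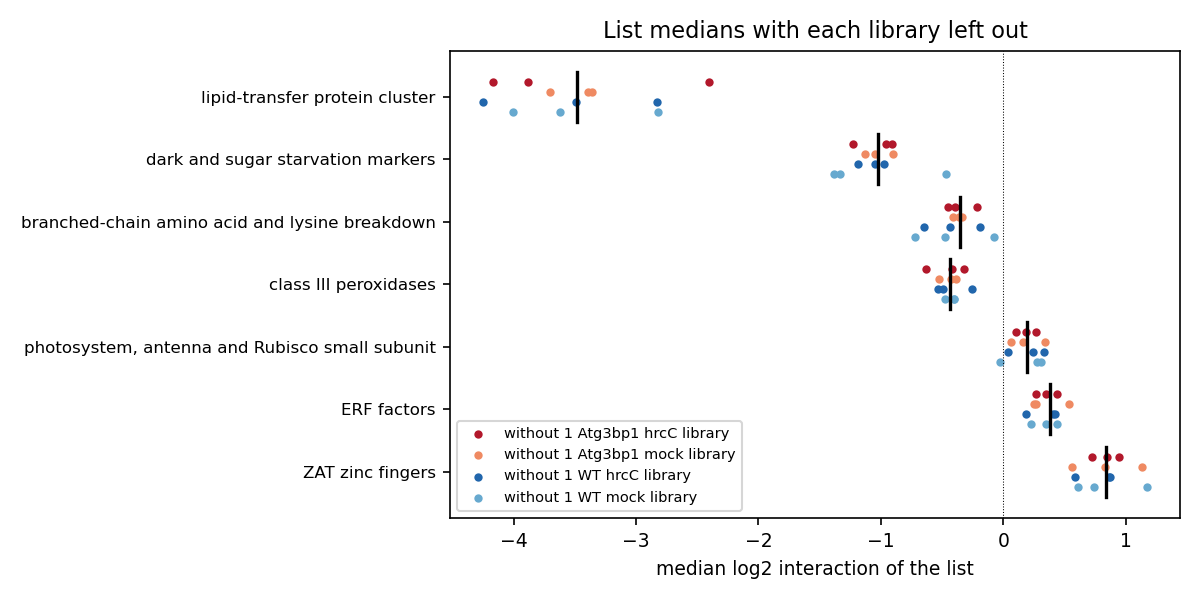
Median log2 interaction (x axis) of 7 groups of genes after leaving out each of the 12 libraries in turn, with the library's group by colour and the median over all libraries as a black line. The starvation markers reach -0.47 and the photosystem list -0.03 without WT mock 1, and the lipid-transfer cluster stays between -4.25 and -2.40.

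The genes with the smallest interaction p were moderate in size and tight within groups. OCT2, a carnitine transporter, held 4.32, 3.17 and 2.96 FPKM in Atg3bp1 hrcC and 6.32, 6.201 and 5.43 in Atg3bp1 mock, against 2.25, 2.75 and 1.87 in WT hrcC and 0.755, 1.52 and 0.960 in WT mock. The 4 groups did not overlap one another. Its interaction of -1.30 (SE 0.25, 95% interval -1.85 to -0.75) had the smallest unadjusted limma p of all genes, 0.00024. AT4G37220, of the cold acclimation WCOR413 family, held 3.17, 3.76 and 2.63 FPKM in Atg3bp1 hrcC and 7.62, 9.58 and 15.7 in Atg3bp1 mock, against 2.33, 1.66 and 2.31 in WT hrcC and 1.16, 2.33 and 1.29 in WT mock. Only its Atg3bp1 mock libraries stood apart from the other groups by a wide margin (interaction -1.73, SE 0.35).

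CDEF1, a GDSL lipase that can degrade cutin, held 3.24, 6.58 and 9.57 FPKM in Atg3bp1 hrcC and 19.4, 22.8 and 11.5 in Atg3bp1 mock, against 13.6, 12.1 and 21.1 in WT hrcC and 6.62, 6.202 and 9.82 in WT mock. Both differences between the treatments were without overlap and in opposite directions (interaction -2.31, SE 0.50). AT1G25400, an uncharacterized gene that rose on average, was a smaller increase: 55.7, 38.8 and 57.6 FPKM in Atg3bp1 hrcC and 30.4, 23.8 and 25.3 in Atg3bp1 mock, against 23.9, 19.2 and 18.2 in WT hrcC and 2.78, 3.20 and 4.52 in WT mock (interaction -1.32, SE 0.29).

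In the positive direction AT2G19290 (1.12), AT4G23900 (1.17), AT2G23840 (1.36) and AT1G72900 (1.22) had the smallest p. AT2G23840, annotated as an HNH endonuclease, held 8.36, 7.62 and 7.63 FPKM in Atg3bp1 hrcC and 3.84, 2.99 and 6.31 in Atg3bp1 mock, against 7.69, 4.91 and 7.19 in WT hrcC and 11.1, 9.50 and 9.79 in WT mock. After hrcC the deposited values of the genotypes overlapped, whereas after rescaling all Atg3bp1 libraries lay above all WT libraries. In mock all Atg3bp1 libraries lay below all WT libraries. AT1G72900, which encodes a TIR domain protein, held 12.5, 8.79 and 9.80 FPKM in Atg3bp1 hrcC and 3.55, 2.48 and 1.90 in Atg3bp1 mock, against 8.54, 5.88 and 7.15 in WT hrcC and 6.22, 4.45 and 3.96 in WT mock. It was a larger increase, with log2 responses of 1.70 in Atg3bp1 and 0.48 in WT. AT4G23900, a nucleoside diphosphate kinase, stayed below 1 FPKM in all libraries except WT mock, which held 2.37, 2.57 and 3.36 FPKM.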

How the data were processed

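The deposited table held FPKM per gene for 12 RNA-seq libraries of whole seedlings (stranded TruSeq mRNA kit). The authors made these FPKM values from trimmed, aligned reads. The submitters' processing notes name Trimmomatic, TopHat, Cufflinks, Cuffdiff and the TAIR10 genome. According to the study's methods, reads that match several places were given 1 placement, so values of near-identical copies are uncertain. The strand setting used in counting is not given in the sources used here. Read counts were not used here, the depth behind each value is unknown, and no counting interval is given.

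Each library was rescaled to a common upper quartile (75th percentile), and values were taken as log2(FPKM + 1), which understates differences of low genes. Only genes averaging 1 FPKM or more over the libraries were fitted with limma 3.58.1 in R 4.3.3 (4 group means, moderated variance with trend, Benjamini-Hochberg adjustment over 17158 genes, called at an adjusted p of 0.05 and 2-fold). FPKM values in the text are as deposited, and SE and intervals are those of limma. Statements that the libraries of a gene overlap or lie apart refer to the deposited values unless rescaling is named. Rescaling can change them. Statements on the responses of library pairs refer to rescaled values. P-values set a difference against the spread between these libraries. Gene models, positions and sequences came from the RefSeq annotation of TAIR10.1 and were read with Biopython 1.88, with 26703 of 27371 genes matched. Of the 40 gene lists, 14 members whose annotated product did not match their list were dropped.

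The members and lists were chosen with earlier results of these data known. Named were the 8 largest interactions at each end, the 4 smallest p in each direction, the 4 most negative and most positive genes among those that rose and those that fell on average, the immunity genes the study names, the targeted gene, and up to 4 members of a described list, to which further members were added after their values had been seen. Other scalings, pseudocounts, filters, variance models, replicate blocks and the leaving out of each library were tried as alternatives. Chosen after the data had been seen were the fit without the 3 libraries with high scaling factors, the fit of genes above 0 in all 12 libraries and the grouping by annotated product.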

Additional observations from a re-analysis of the deposited data

Results flagged for a closer look

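In 3 of the genes with the smallest interaction p, every difference between an hrcC and a mock library had one sign in seedlings labelled Atg3bp1 and the opposite sign in seedlings labelled WT. OCT2 (interaction -1.30) had log2 responses between -0.82 and -0.37 over the 9 library pairs of Atg3bp1 and between 0.27 and 1.09 over the 9 of WT. CDEF1 (interaction -2.31) had responses between -2.45 and -0.19 in Atg3bp1 and between 0.38 and 1.73 in WT. AT2G23840 (interaction 1.36) had responses between 0.12 and 1.30 in Atg3bp1 and between -1.10 and -0.22 in WT. The limma test of the difference itself gave unadjusted p of 0.00024, 0.00057 and 0.0018, and none of the 3 passed the adjusted threshold. Over all tested genes 61 (0.356%) had such opposite responses, of which 20 were up in Atg3bp1 and down in WT.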

How the results depend on the processing

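The interaction had 0 calls under every scaling, pseudocount, filter and variance model, and without each single library. It had 247 without the 3 libraries with high scaling factors and 171 at an unadjusted p of 0.05 with 2-fold. Of 121 genes that fell on average, the count was 188 with a pseudocount of 0.1 FPKM, 74 with no moderation, 580 with a replicate block within each treatment, 224 without the 3 libraries and 614 with no fold threshold. The last setting had 998 genes that rose on average, beside 563 with the fold threshold. Genes with an interval within 2-fold numbered 5984 with the pseudocount of 0.1 FPKM, 14876 of 23870 genes with no filter and 4989 of 9503 with a mean of at least 5 FPKM. Responses separated above numbered 183 with no filter, 69 with the mean of 5 FPKM and 2862 without the 3 libraries, and those separated below 101 and 2841 in the last 2 settings. With single libraries left out, and so fewer pairs to separate, they ran from 159 to 574 above and from 277 to 886 below, both highest without WT hrcC 1. The replicate block left 0 interaction calls, 558 genes that rose and 112 that fell. Over all groups 7 of 18 same-numbered pairs had deviations correlated above 0.1 (-0.42 to 0.43), so the numbers were not taken to pair all 4 groups. Between the genotypes 3 of 3 mock pairs (lowest 0.102) and 2 of 3 hrcC pairs (lowest 0.042) were above it. Some small interactions changed sign. AT5G48650 had -0.036 with no rescaling and -0.60 and -0.11 with pseudocounts of 0.1 and 0.5 FPKM, WAK1 -0.27 and -0.041 with the same pseudocounts, NAC3 -0.25 with 0.1 FPKM and -0.15 without the 3 libraries, EDS16 0.15 after quantile normalization and EDS1 0.0104 with a term for those libraries. Leaving out single libraries gave -0.19 to 0.45 for WAK1, -1.30 to 0.40 for AZI1, -0.50 to 0.23 for MYB51, -0.33 to 0.042 for CBP60G, -0.24 to 0.13 for EDS16, -0.095 to 0.21 for EDS5, -0.097 to 0.13 for AT5G48650, -0.026 to 2.35 for PDF1.2b and -0.65 to 0.18 for JAZ10. The causes of these shifts were not tested. The median interaction of all genes lay between -0.022 and 0.038 under the scalings tried.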

Other observations

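Grouping the tested genes by their annotated product, a choice made after the data had been seen, gave further families on each side. Lipid-transfer and related proteins, the 6 of the cluster on chromosome 4 included, numbered 52 tested genes with a median interaction of -0.55. Of these, 41 were below 0 (50.2% of all genes were) and 11 were in the negative 200 (1.17% of all genes). Endomembrane 70 proteins, which reside in Golgi and endosome membranes, had a median of -0.57 and 9 of 10 genes below 0. Family 17 glycosyl hydrolases, which include beta-1,3-glucanases, had 18 of 19 genes below 0 (median -0.46), aspartyl proteases 34 of 39 (median -0.38), and a family of leucine-rich repeat receptor-like kinases 21 of 22 (median -0.37). On the positive side, RCC1-repeat proteins had 12 of 12 genes above 0 (median 0.23), FKBP-like peptidyl-prolyl isomerases 11 of 12 (median 0.23) and plastid lipid-associated PAP/fibrillin proteins a median of 0.25 over 10 genes. These are counts and medians with no test, beside a median of -0.00098 over all tested genes.

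When the 3 libraries with high scaling factors were left out, which leaves WT mock with replicate 1 alone, 0.938% of all genes were called lower and 0.501% higher in Atg3bp1. Beside the starvation markers, 4 of 48 class III peroxidases and 2 of 11 genes of branched-chain amino acid and lysine breakdown were called lower. Aliphatic glucosinolate genes (4 of 19), flavonoid and anthocyanin genes (2 of 13) and circadian clock genes (2 of 11) held calls of a higher response. These are the lists with at least 2 calls in one direction.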
